A study of Arabidopsis thaliana with 8 samples.

Results

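The comparison described here is that of Arabidopsis thaliana plants kept for 7 d at 4 °C with plants kept warm. Its members were taken by label alone, as the 2 arrays labelled 7 d and the 2 control arrays, and make up 4 of the 8 arrays of the series. The other 4 arrays hold plants after 1 h and 24 h at 4 °C, and the 24 h arrays serve below to show where the 7 d plants differed from a shorter stay in the cold. All plants were of the wild-type accession Col-0, grown in soil (Bacto mix), and the above-ground parts without roots were harvested for total RNA. The seeds had been stratified for 4 d at 4 °C, and growth at 22 °C for 10 d is recorded for each group. Control plants were harvested at 22 °C under continuous fluorescent light of 100 µmol m-2 s-1, and by the treatment protocol the plants in the cold stood under continuous light of about 25 µmol m-2 s-1. Another label gives 100 µmol m-2 s-1 for every sample, cold ones included, so the light in the cold is not settled. The labels give the same age of 18 d for the control and 7 d samples, so the age at harvest of each group is unclear. Temperature, any difference in light and any difference in age cannot be told apart in this comparison.

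Cold acclimation is the process by which many temperate plants gain freezing tolerance during days at low, non-freezing temperature. In Arabidopsis, CBF transcription factors appear early in the cold and switch on cold-regulated (COR) genes, many of which encode hydrophilic proteins that protect membranes and proteins when cells lose water. Over days, sugars build up in leaves, membrane lipids are remodelled, growth slows and the photosynthetic apparatus adjusts to the imbalance between light capture and cold-slowed metabolism.

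RNA was measured on Affymetrix ATH1 arrays, and each value is the deposited signal of 1 probe set, a group of probes for 1 transcript, in arbitrary units. After a filter on low signals, 14756 of 22746 probe sets were tested, of which 8045 name 1 gene. Signals of the 2 control arrays correlated at r = 0.972 across the tested probe sets and those of the 2 7 d arrays at 0.964, against 0.914 to 0.926 between groups. Probe sets are not independent replicates. The ratio of 3′ to 5′ probe sets for the actin control, a measure of RNA integrity and labelling, reached 9.01 and 8.78 in control plants but 6.76 and 5.56 after 7 d. The ubiquitin control was also higher in control plants, at 2.88 and 2.22 against 2.13 and 2.14 after 7 d. For GAPDH the control arrays gave 1.24 and 1.26 and the 7 d arrays 1.36 and 1.17. The part of these ratios in the results was not tested. The labels do not say whether the 2 arrays of a group came from separate pots or plants, so p-values measure the spread between arrays, which may be technical. Tissue was taken whole, so fewer cells of a type and less RNA per cell cannot be told apart. Of 16 genes listed as markers of other organs none had a tested probe set, and of 12 markers of leaf cell types only FMA, a guard-cell regulator, had one, with a log2 change of -0.22 (adjusted p = 0.462).

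After 7 d at 4 °C, 1082 probe sets (7.33% of those tested) gave a higher signal and 1260 (8.54%) a lower signal than in control plants, at an adjusted p under 0.05 in limma. Together they made up 15.9% of the tested probe sets. Changes were mostly moderate, with a median of 0.80 on the log2 scale among the higher and -0.81 among the lower probe sets. A change of at least 4-fold was seen in 70 higher and 50 lower probe sets. Log2 changes are differences of log2(signal + 6.07), where 6.07 is a pseudocount, and fold changes are the matching ratios of signal + 6.07, which understate the change of weakly expressed genes. Across all tested probe sets the median change was -0.00. The arrays of the 2 groups did not overlap in 59.0% of tested probe sets and in every called one. The shares of 7.33% higher and 8.54% lower are the background for the counts on gene lists below. All lists were chosen with earlier results of these data known, and some were formed after values were seen. The named genes with the largest changes span weak and strong signals, as the plot of change against signal level shows.

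**Figure D1:**
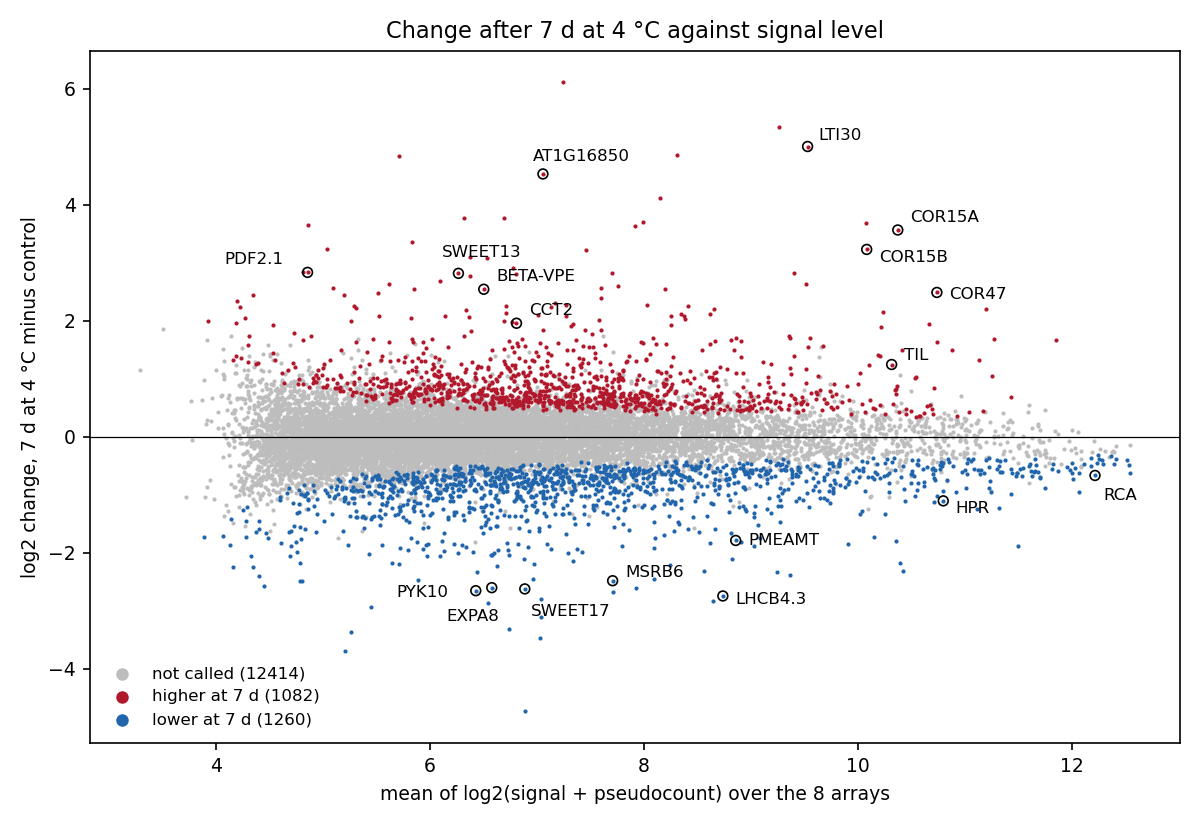
Log2 change of each tested probe set after 7 d at 4 °C against control (vertical axis) by its mean log2(signal + pseudocount) over the 8 arrays (horizontal axis). Red points are the 1082 probe sets called higher, blue points the 1260 called lower and grey points those not called. LTI30 and COR15A combine a large rise with a strong signal, and LHCB4.3 lies at -2.75.

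Cold-regulated genes held several of the largest rises among named genes. Of 9 tested COR genes and other listed CBF targets, 8 rose, none fell and 1 was not called, with a median log2 change of 2.82. LTI30, a dehydrin that binds membranes, gave signals of 118 and 86.4 on the control arrays and 3825 and 3078 on the 7 d arrays, a rise of 32.0-fold (log2 5.00 ± 0.31 SE, adjusted p = 9.82e-05). COR15A, whose small protein enters chloroplasts and stabilises their membranes on freezing, went from 472 and 289 to 4573 and 4293, an 11.8-fold rise (adjusted p = 0.000218). Its neighbour and paralogue COR15B went from 431 and 216 to 2909 and 2920, a 9.37-fold rise (adjusted p = 0.000694). The 2 genes lie side by side on the RefSeq TAIR10.1 assembly with no coding gene between them. In both, the lowest 7 d signal lay far above the highest control signal. COR47, another dehydrin, stood at 750 and 333 in the control and at 3308 and 2420 after 7 d (5.60-fold, adjusted p = 0.00463). On the log scale the control arrays of COR47 differed from each other by more than the 7 d arrays did, and its rise still passed the test without any single array. COR27, which encodes a regulator linking cold to the circadian clock, went from 79.7 and 36.2 to 509 and 344 (7.05-fold, adjusted p = 0.00523).

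RD2 changed less but with tight arrays, from 427 and 387 in the control to 1189 and 1244 after 7 d (2.96-fold, adjusted p = 0.000147). AT1G16850, which the annotation names by its locus tag only, had signals of 21.6 and 11.8 in the control and 577 and 445 after 7 d. The smallest rise on this list was that of AT5G62200, with a log2 change of 0.68 (adjusted p = 0.0219). Its call ended without either control array (adjusted p = 0.0513 without array 1, 0.115 without array 2) or either 7 d array (0.0885 and 0.0583). AT4G33980 was the member not called, at 33.8 and 19.2 in the control and 88.9 and 58.1 after 7 d (2.46-fold, adjusted p = 0.0770). It passed the test in a fit of the 2 groups alone (adjusted p = 0.0434) and without either 1 h array (0.0207 and 0.0196). The CBF regulators themselves are not described, since only 1 of 18 listed early cold transcription factors, the zinc finger gene STZ, had a tested probe set. STZ had a log2 change of 0.15 (adjusted p = 0.871), with control signals of 61.9 and 128 and 7 d signals of 52.4 and 186.

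Among 4 tested late embryogenesis abundant (LEA) proteins, dehydrins and lipocalins, 2 rose, none fell and 2 were not called, with a median of 0.96. TIL, the temperature-induced lipocalin, a small lipid-binding protein of the plasma membrane, went from 637 and 710 to 1591 and 1610 (2.37-fold, adjusted p = 0.000467). AT1G54410, annotated by RefSeq as the dehydrin HIRD11, was already strong in warm plants at 2093 and 1861 and reached 3214 and 3145, a 1.61-fold rise (adjusted p = 0.0118). That call ended without 7 d array 1 (adjusted p = 0.0560), 7 d array 2 (0.0503) or control array 2 (0.0562), which left TIL as the member that passed. LEA4-5, an LEA protein of seeds and drying tissue, was near the floor at 2.69 and 0.679 in the control and gave 15.8 and 8.82 after 7 d (adjusted p = 0.0667). The 7 d arrays of LEA4-5 lay above the control arrays, but the difference did not pass the test.

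All 3 tested genes on a list of lipid transfer and hybrid proline-rich proteins of the EARLI1 type rose, with a median of 3.21. AT4G12500 went from 18.1 and 11.8 to 161 and 263 (10.2-fold, adjusted p = 0.000186). AT4G12490 went from 55.4 and 94.2 to 512 and 1011 (9.25-fold, adjusted p = 0.00117). The 7 d arrays of these genes differed from each other, with array 2 higher for each, and both lay above every control array. The 2 genes stand near each other on the chromosome with 1 coding gene between them, and how far their probe sets share targets was not tested. AT4G22470 rose less, from 25.6 and 16.1 to 46.4 and 86.2 (2.63-fold, adjusted p = 0.0142), and its call ended without 7 d array 2 (adjusted p = 0.0648) or control array 2 (0.0751).

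**Figure D2:**
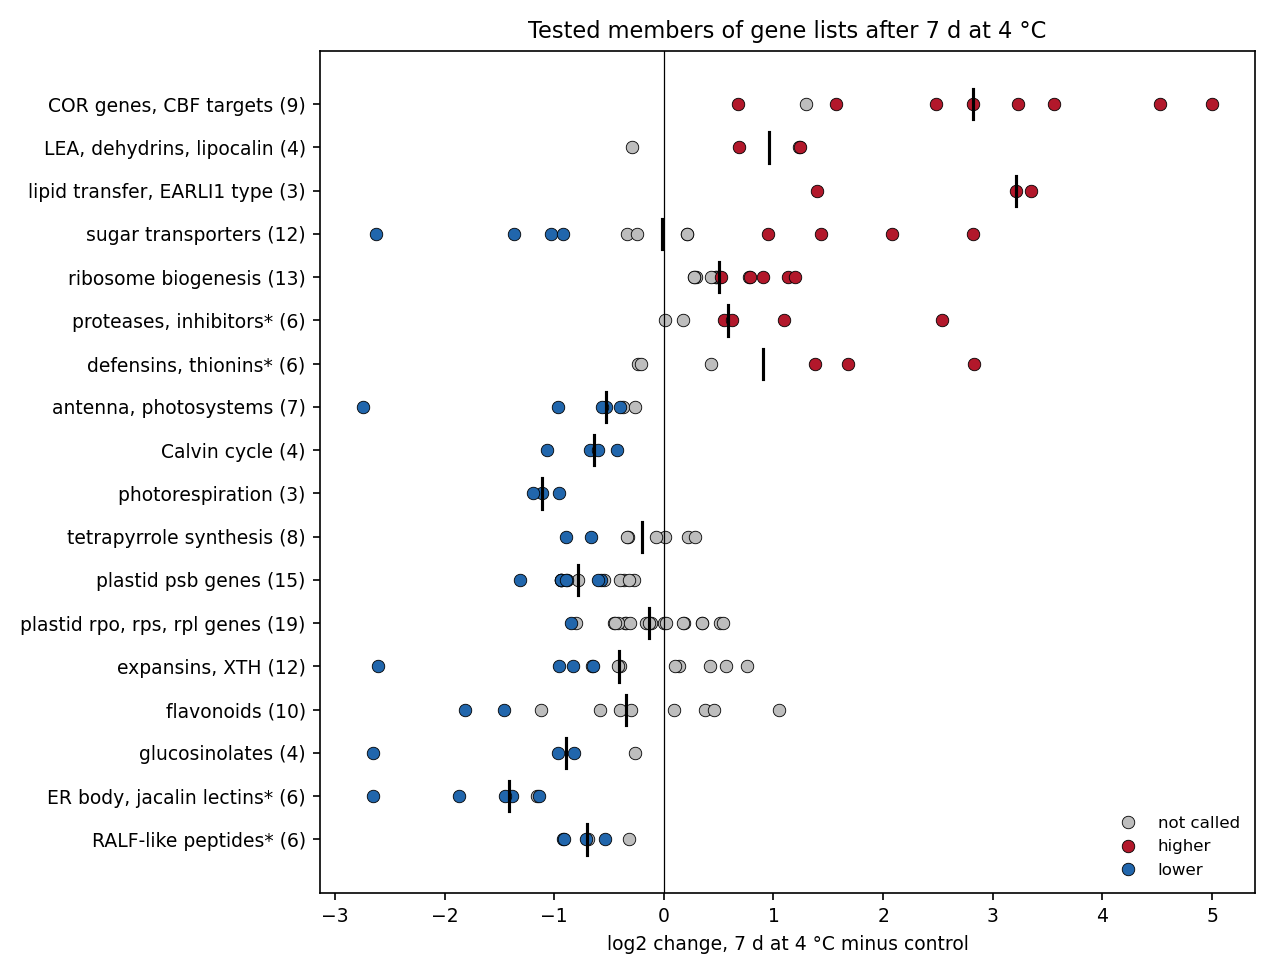
Log2 change after 7 d at 4 °C for each tested member (point) of 18 gene lists, with the number tested in brackets and the median as a vertical bar. Red and blue points were called higher and lower, grey points were not called, and an asterisk marks lists formed after values were seen. Lists without an asterisk were chosen with earlier results of these data known. COR genes lie to the right of 0, photosystem and photorespiration genes to the left, and sugar transporters on both sides.

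Sugar transporters moved in opposite directions. Of 12 tested, 4 rose, 4 fell and 4 were not called, so that the median was -0.02. SWEET13, a plasma membrane sucrose exporter that serves phloem loading, went from 32.9 and 31.7 in the control to 275 and 253 after 7 d (7.04-fold, adjusted p = 0.000146). SWEET4, which moves hexoses, went from 34.5 and 30.9 to 147 and 170 (4.24-fold, adjusted p = 0.000500). TMT2, a transporter that loads sugar into the vacuole, went from 113 and 116 to 356 and 286 (2.70-fold, adjusted p = 0.00367). SWEET1, a glucose carrier, went from 160 and 167 to 320 and 322 (1.93-fold, adjusted p = 0.00207). For each of these 4 carriers the control and 7 d arrays were well apart. SWEET17, the vacuolar fructose carrier, fell from 210 and 279 to 53.8 and 21.0 (6.17-fold lower, adjusted p = 0.00226). SWEET2, a vacuolar glucose carrier, fell from 135 and 197 to 84.0 and 69.9 (2.05-fold lower, adjusted p = 0.0142), a call that ended without 7 d array 2 (adjusted p = 0.0678) or control array 2 (0.0758). The ERD6-type transporters SFP1 and SFP2 also fell, by 0.92 and 1.37 on the log2 scale (adjusted p = 0.00488 and 0.00405). SWEET11, SWEET16, TMT1 and AT1G19450 had log2 changes of -0.34, -0.25, 0.21 and 0.21 and were not called.

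Few genes of sugar and starch metabolism carried a tested probe set with a single gene name. Of 3 listed under sucrose synthesis and cleavage, AT1G62660 fell from 88.4 and 111 to 14.4 and 19.4 (4.61-fold lower, adjusted p = 0.000535) and AT2G35840 rose from 315 and 285 to 456 and 440 (1.48-fold, adjusted p = 0.0172). The rise of AT2G35840 did not pass without either 7 d array (adjusted p = 0.0707 and 0.0559) or either control array (0.0534 and 0.0875). Of 4 starch genes, 1 fell, none rose and 3 were not called. The one that fell was SBE2.2, a starch branching enzyme, from 272 and 257 to 113 and 134 (2.09-fold lower, adjusted p = 0.00608), named after its value was seen.

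Tested nuclear genes on the lists of light reactions, carbon fixation and photorespiration fell or were not called. Of 45 listed antenna and photosystem genes of the nucleus, 7 were tested. Of these 7, 5 fell, none rose and 2 were not called, with a median of -0.53. After quantile normalization 3 of the 7 were called lower. LHCB4.3 stood apart from the other antenna genes. It encodes a variant of the minor antenna protein CP29 of photosystem II, and its signal was 756 and 767 in the control and 107 and 110 after 7 d (6.71-fold lower, log2 -2.75 ± 0.12 SE, adjusted p = 1.21e-05). Its paralogue LHCB4.1 gave 6088 and 5096 in the control and 4139 and 4291 after 7 d (1.32-fold lower, adjusted p = 0.0303), a call that ended in 5 of the 8 fits that left out 1 array (adjusted p up to 0.133, without 7 d array 1). LHCB4.2 gave 3536 and 3482 in the control and 2780 and 2654 after 7 d (adjusted p = 0.0950) and was not called. PSAE-1, a stromal subunit of photosystem I, fell from 5768 and 4957 to 2661 and 2825 (1.95-fold lower, adjusted p = 0.000814). PSAN, a lumenal photosystem I subunit, fell from 3637 and 3231 to 2279 and 2354 (1.48-fold lower, adjusted p = 0.00669). LHCB4.3, PSAE-1 and PSAN were called without each array in turn, and only 3 of the 7 genes passed without 7 d array 1, 7 d array 2 or control array 1.

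All 4 tested Calvin cycle genes, of 21 listed, fell, with a median of -0.63. RCA, rubisco activase, went from 5935 and 5056 to 3482 and 3404 (1.59-fold lower, adjusted p = 0.00385). Its log2 change of -0.67 shrank to -0.36 after quantile normalization, where it was still called (adjusted p = 0.00916). AT1G56190 went from 1112 and 1033 to 469 and 553 (2.09-fold lower, adjusted p = 0.00297). PRK and SBPASE, phosphoribulokinase and sedoheptulose bisphosphatase of the regeneration phase, changed by -0.60 and -0.43 on the log2 scale (adjusted p = 0.0213 and 0.0460). Only 2 of the 4 genes passed without 7 d array 1 or without control array 1. The call of SBPASE ended in 7 of the 8 fits that left out 1 array (adjusted p up to 0.199), after quantile normalization (log2 -0.28, adjusted p = 0.0577) or median centring (0.0568), and in the fit of the 2 groups alone (0.0969).

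The 3 tested photorespiration genes fell as well, with a median of -1.11, and all 3 passed without each array in turn. HPR, the peroxisomal hydroxypyruvate reductase, went from 3018 and 2358 to 1312 and 1163 (2.15-fold lower, adjusted p = 0.00236). AT1G80380 went from 934 and 737 to 382 and 337 (2.29-fold lower, adjusted p = 0.00211), and AT1G11860 from 3050 and 2407 to 1435 and 1362 (1.93-fold lower, adjusted p = 0.00469). In each, the groups did not overlap, as in every called probe set. The list held 13 genes, and the others had no tested probe set that names 1 gene. Of 8 tested tetrapyrrole and chlorophyll synthesis genes, 2 fell, none rose and 6 were not called, with a median of -0.20. For comparison, 8.54% of all tested probe sets fell. HEME1, a uroporphyrinogen decarboxylase, fell from 567 and 579 to 299 and 314 (1.85-fold lower, adjusted p = 0.00257). HEMB1, which makes porphobilinogen, changed by -0.67 (adjusted p = 0.00707), and its call ended without control array 1 (adjusted p = 0.0529).

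Transcripts of the plastid genome were less uniform. Of 69 tested, 15 fell, 1 rose and 53 were not called, with a median of -0.38. Photosystem II genes made up most of the falls, with 8 of 15 psb genes lower and none higher (median -0.79, or -0.49 without control array 1). Of 19 genes for the plastid RNA polymerase and ribosomal proteins, 1 fell and none rose (median -0.14, between -0.22 and 0.01 with 1 array left out). That count lay near the share of all tested probe sets that fell, 8.54%. psbA, which encodes the D1 reaction centre protein, went from 1289 and 1516 to 642 and 824 (1.91-fold lower, adjusted p = 0.0130), and did not pass without control array 2 (adjusted p = 0.0711). psbB, for the inner antenna protein CP47, went from 1684 and 1235 to 613 and 922 (1.91-fold lower, adjusted p = 0.0195). psaJ, for a small photosystem I subunit, went from 2523 and 2656 to 1750 and 1578 (1.56-fold lower, adjusted p = 0.00816). The one rise was rbcL, the large subunit of rubisco, from 423 and 675 to 1136 and 1296 (2.26-fold, adjusted p = 0.0433), and its neighbours atpB and atpE fell by 0.40 and 0.38 on the log2 scale (adjusted p = 0.0470 and 0.0464). After quantile normalization the changes of atpB and atpE were -0.00 and -0.07 (adjusted p = 1.00 and 0.583). Both of these calls also ended with median centring, without the filter, without the variance trend, with the 2 groups alone and in 7 of the 8 fits that left out 1 array (adjusted p up to 0.174 for atpB and 0.191 for atpE). These plastid calls were fragile. Without 7 d array 1 only 2 of the 69 were lower, none of them psb genes, and without control array 1 only 3 were lower, of which 1 was a psb gene. The call of rbcL ended in 6 of the 8 fits that left out 1 array, with adjusted p up to 0.228 without control array 1. The call of psaJ ended without 7 d array 2 (adjusted p = 0.0528). How the labelling step treats plastid transcripts, most of which carry no long poly(A) tail, is not given in the sources used here.

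Nuclear genes for the assembly and upkeep of the same complexes were listed after values were seen. Of 19, 7 fell, none rose and 12 were not called, with a median of -0.22 that lay between -0.45 (without 7 d array 1) and -0.13 (without 7 d array 2) when 1 array was left out. LPA2, an assembly factor of photosystem II, fell from 304 and 331 to 177 and 146 (1.94-fold lower, adjusted p = 0.00601) and was called without each array in turn. NdhN, a subunit of the chloroplast NADH dehydrogenase-like complex, had a log2 change of -1.15 (adjusted p = 0.0142), a call that ended without 7 d array 2 (adjusted p = 0.0701) or control array 1 (0.0930). The number that fell dropped to 2 without 7 d array 2 and to 1 without control array 1. Of 8 plastid thioredoxins, peroxidases and reductases, also listed after values were seen, 4 fell, none rose and 4 were not called (median -0.51). SRX, sulfiredoxin, which restores overoxidised peroxiredoxin, fell from 195 and 173 to 75.9 and 94.3 (2.09-fold lower, adjusted p = 0.00606). Of these 8, 2 fell without 7 d array 2 or without control array 1.

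Methionine sulfoxide reductases of the B type, which repair oxidised methionine, split in direction. MSRB6 fell from 345 and 298 to 51.8 and 53.0 (5.59-fold lower, adjusted p = 7.01e-05). MSRB3, which lies close to MSRB6 with 2 coding genes between them, went from 60.2 and 93.6 to 153 and 175 (2.09-fold higher, adjusted p = 0.00979). The rise of MSRB3 missed the threshold without 7 d array 2 (adjusted p = 0.0503) or control array 1 (0.0516). Of the 8 antioxidant enzymes and methionine sulfoxide reductases tested in all, 1 rose, 2 fell and 5 were not called.

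Genes of cell wall loosening and directional growth fell or were not called. Of 12 tested expansins and xyloglucan endotransglucosylases, enzymes and proteins that loosen the wall, 4 fell, none rose and 8 were not called, with a median of -0.41. Among all tested probe sets 8.54% fell. EXPA8 fell the most, from 412 and 214 to 44.3 and 43.3 (6.08-fold lower, adjusted p = 0.00606). The other 3 were EXPB1, EXPB3 and EXPA4, with log2 changes of -0.96, -0.83 and -0.65 (adjusted p = 0.0336, 0.0195 and 0.0211). Without either control array only EXPA8 passed, and without either 7 d array 2 genes passed. The SPIRAL1 family, proteins that bind microtubules and guide directional cell expansion, was listed after values were seen. In it SP1L3 and SP1L4 fell and SP1L2 and SPR1 were not called. SP1L3 went from 488 and 448 to 206 and 205 (2.24-fold lower, adjusted p = 0.00102). SP1L4 went from 34.8 and 35.5 to 2.71 and 5.15 (4.15-fold lower on the scale with the pseudocount, adjusted p = 0.00286), and its log2 change of -2.05 became -1.16 at a pseudocount of 21.3. Both calls held without each array in turn. ACT11, an actin of growing tissue from a list formed after values were seen, fell from 94.1 and 161 to 34.8 and 25.6 (3.59-fold lower, adjusted p = 0.00533).

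RALF-like genes, which encode secreted peptides that act on cell growth, were listed after values were seen. They gave 4 falls, no rise and 2 genes not called among 6 tested, with a median of -0.70. The share that fell among all tested probe sets was 8.54%. RALFL33 fell from 279 and 258 to 152 and 129 (1.88-fold lower, adjusted p = 0.00854). None of the 6 passed without control array 1, and 1 passed without 7 d array 2.

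Genes of phosphatidylcholine synthesis, the main phospholipid outside plastids, were listed after values were seen. The list held 4 tested genes with a symbol and none named only by a locus tag, so it may not be complete. In it 2 rose, 1 fell and 1 was not called. PMEAMT, which methylates phosphoethanolamine on the way to phosphocholine, fell from 697 and 703 to 179 and 219 (3.46-fold lower, adjusted p = 0.000149). CCT2, the enzyme that couples phosphocholine to its nucleotide carrier, rose from 43.2 and 35.2 to 167 and 171 (3.88-fold, adjusted p = 0.000577). Both genes had tight arrays and were called without each array in turn. AAPT2, which joins the activated head group to diacylglycerol, rose from 150 and 148 to 242 and 224 (1.54-fold, adjusted p = 0.0266). CCT1 had a log2 change of -0.04 and was not called. The call of AAPT2 ended without any 1 of the 4 arrays compared (adjusted p from 0.0668 to 0.109), with CCT2 as the member that rose and still passed.

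Genes linked to defence against herbivores and microbes changed in both directions. PYK10, a myrosinase-type beta-glucosidase stored in endoplasmic reticulum bodies, fell from 152 and 130 to 15.6 and 18.9 (log2 -2.66, adjusted p = 9.96e-05). NAI2, which is needed to form those bodies, fell from 55.8 and 53.4 to a mean of 17.2 ± 0.62 (SD, n = 2; 2.61-fold lower, adjusted p = 0.00456). On a list of ER body proteins and jacalin-related lectins drawn up after values were seen, 5 of 6 fell, none rose and 1 was not called, with a median of -1.42. The lectins on it, JAL22, JAL23, JAL33 and JAL34, had log2 changes of -1.45, -1.87, -1.15 and -1.14. PYK10 and NAI2 were called without each array in turn, and they were the 2 that passed without 7 d array 2 or without control array 1. Of 4 genes listed under glucosinolate synthesis and myrosinases, 3 fell and 1 was not called (median -0.89), PYK10 among them. UGT74B1, which adds the glucose in glucosinolate synthesis, went from 218 and 238 to 124 and 130 (1.76-fold lower, adjusted p = 0.0243). Without 7 d array 2 or either control array PYK10 alone passed, and without 7 d array 1 UGT74B1 missed the threshold (adjusted p = 0.0874).

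Small secreted defence peptides were among the rises. LCR69, a defensin-like peptide, went from 1556 and 934 to 4107 and 3642 (3.20-fold, adjusted p = 0.00666). PDF2.1, a plant defensin, went from 8.57 and 0.949 to 104 and 41.2 (7.12-fold, adjusted p = 0.00576), and its control signals lie at the floor. The fold of PDF2.1 depends on the pseudocount, with a log2 change of 1.78 at a pseudocount of 21.3 against 2.83 at 6.07. Only 1 coding gene lies between LCR69 and PDF2.1. Defensins and thionins were listed after values were seen. Of 6 tested, 3 rose, none fell and 3, among them the jasmonate-responsive PDF1.2, were not called (median 0.91, or 0.57 without 7 d array 1). THI2.2, a thionin, was the third to rise, from 35.9 and 31.8 to 150 and 62.9 (adjusted p = 0.0285). It missed the threshold without 7 d array 1, control array 1 or control array 2 (adjusted p = 0.0883, 0.101 and 0.113). AT2G43620, on the list of salicylate and pathogenesis-related genes, went from 11.7 and 23.2 to 257 and 363, and 2 of 4 genes on that list rose with none lower. The other was AT2G43590, at 87.0 and 59.7 in the control and 112 and 190 after 7 d (adjusted p = 0.0454), whose call ended in 7 of the 8 fits without 1 array, with adjusted p up to 0.211 without control array 2.

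Vacuolar proteases and protease inhibitors, listed after values were seen, gave 4 rises, no fall and 2 genes not called among 6. BETA-VPE, a vacuolar processing enzyme that matures vacuolar proteins, went from 31.1 and 25.2 to 207 and 179 (5.82-fold, adjusted p = 0.000906). SERPIN1, an inhibitor of cysteine proteases, went from 249 and 244 to 570 and 500 (2.14-fold, adjusted p = 0.000931). CYS1, a cystatin, went from 504 and 516 to 812 and 765 (1.54-fold, adjusted p = 0.00654). APA1, an aspartic protease, went from 1372 and 1466 to 2012 and 2134 (1.46-fold, adjusted p = 0.0118). GAMMA-VPE and ARA12 had log2 changes of 0.01 and 0.18 and were not called. The first 3 of these rises were called without each array in turn, and that of APA1 ended without 7 d array 2 or control array 1 (adjusted p = 0.0668 and 0.0609).

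Ribosome biogenesis genes rose or were not called. Of 13 tested, 5 rose, none fell and 8 were not called, with a median of 0.51. Shares over all tested probe sets were 7.33% higher and 8.54% lower. AT3G22660 went from 47.6 and 46.7 to 117 and 115 (adjusted p = 0.0109), and AT1G52930 from 154 and 172 to 456 and 291 (log2 1.14, adjusted p = 0.00756). None of the 13 passed without control array 1, 2 passed without control array 2 and 3 without 7 d array 1. Flavonoid and anthocyanin synthesis, often induced in cold and bright light, gave 2 falls, no rise and 8 genes not called among 10 (median -0.35, but -0.09 without control array 2 and -0.64 without control array 1). DFR, dihydroflavonol reductase, went from 58.0 and 136 to 13.1 and 32.4 (3.51-fold lower, adjusted p = 0.0310), and AT4G14090 changed by -1.46 (adjusted p = 0.0175). Both calls ended without 7 d array 1 (adjusted p = 0.139 and 0.0783) and without control array 2 (0.154 and 0.0979), and that of AT4G14090 ended without control array 1 too (0.0529). GI (GIGANTEA), a gene of the circadian clock and of flowering, was the tested member of both those lists and was named after its value was seen. Its signals of 557 and 389 after 7 d were above both control arrays (5.92-fold, adjusted p = 0.000662). No time of day is given for the harvests, and plants stood in continuous light.

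Some of the largest changes were in genes with a locus tag only. AT1G80130 went from 52.6 and 85.1 to 819 and 1078 (12.9-fold, adjusted p = 0.000500). AT3G28220 went from 72.1 and 140 to 589 and 695 (6.04-fold, adjusted p = 0.00138), and AT2G16890 from 14.9 and 14.1 to 118 and 133 (6.39-fold, adjusted p = 0.00439). AT3G53980 was near the floor on one control array, at 2.97 and 27.7, and gave 120 and 118 after 7 d. Its log2 change was 2.84 and shrank to 1.89 without control array 1. Among the falls, AT4G33660 went from 235 and 191 to 39.5 and 41.4 (4.69-fold lower, adjusted p = 0.000147), and AT1G73600 from 989 and 1167 to 168 and 258 (5.04-fold lower, adjusted p = 0.000344). ZCF37 went from 26.4 and 48.9 to 1.97 and 1.78, below the pseudocount (adjusted p = 0.00314), and its log2 change of -2.41 became -1.32 at a pseudocount of 21.3.

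Setting the 7 d plants against those after 24 h at 4 °C shows which of these changes came after the first day. Light and temperature were alike on those 4 arrays by the labels, while time in the cold differed. The labels give an age of 18 d for both groups, so any difference in age at harvest is unclear. Between 24 h and 7 d, 637 probe sets (4.32%) were higher and 622 (4.22%) lower at an adjusted p under 0.05. The share of higher among all called was 50.6% and depended on scaling, at 41.1% after quantile normalization and 28.3% after centring each array on its median. The median change of all tested probe sets moved from 0.08 to -0.04 with that centring. The plot of signals by time shows the course of 16 genes over the 8 arrays.

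**Figure D3:**
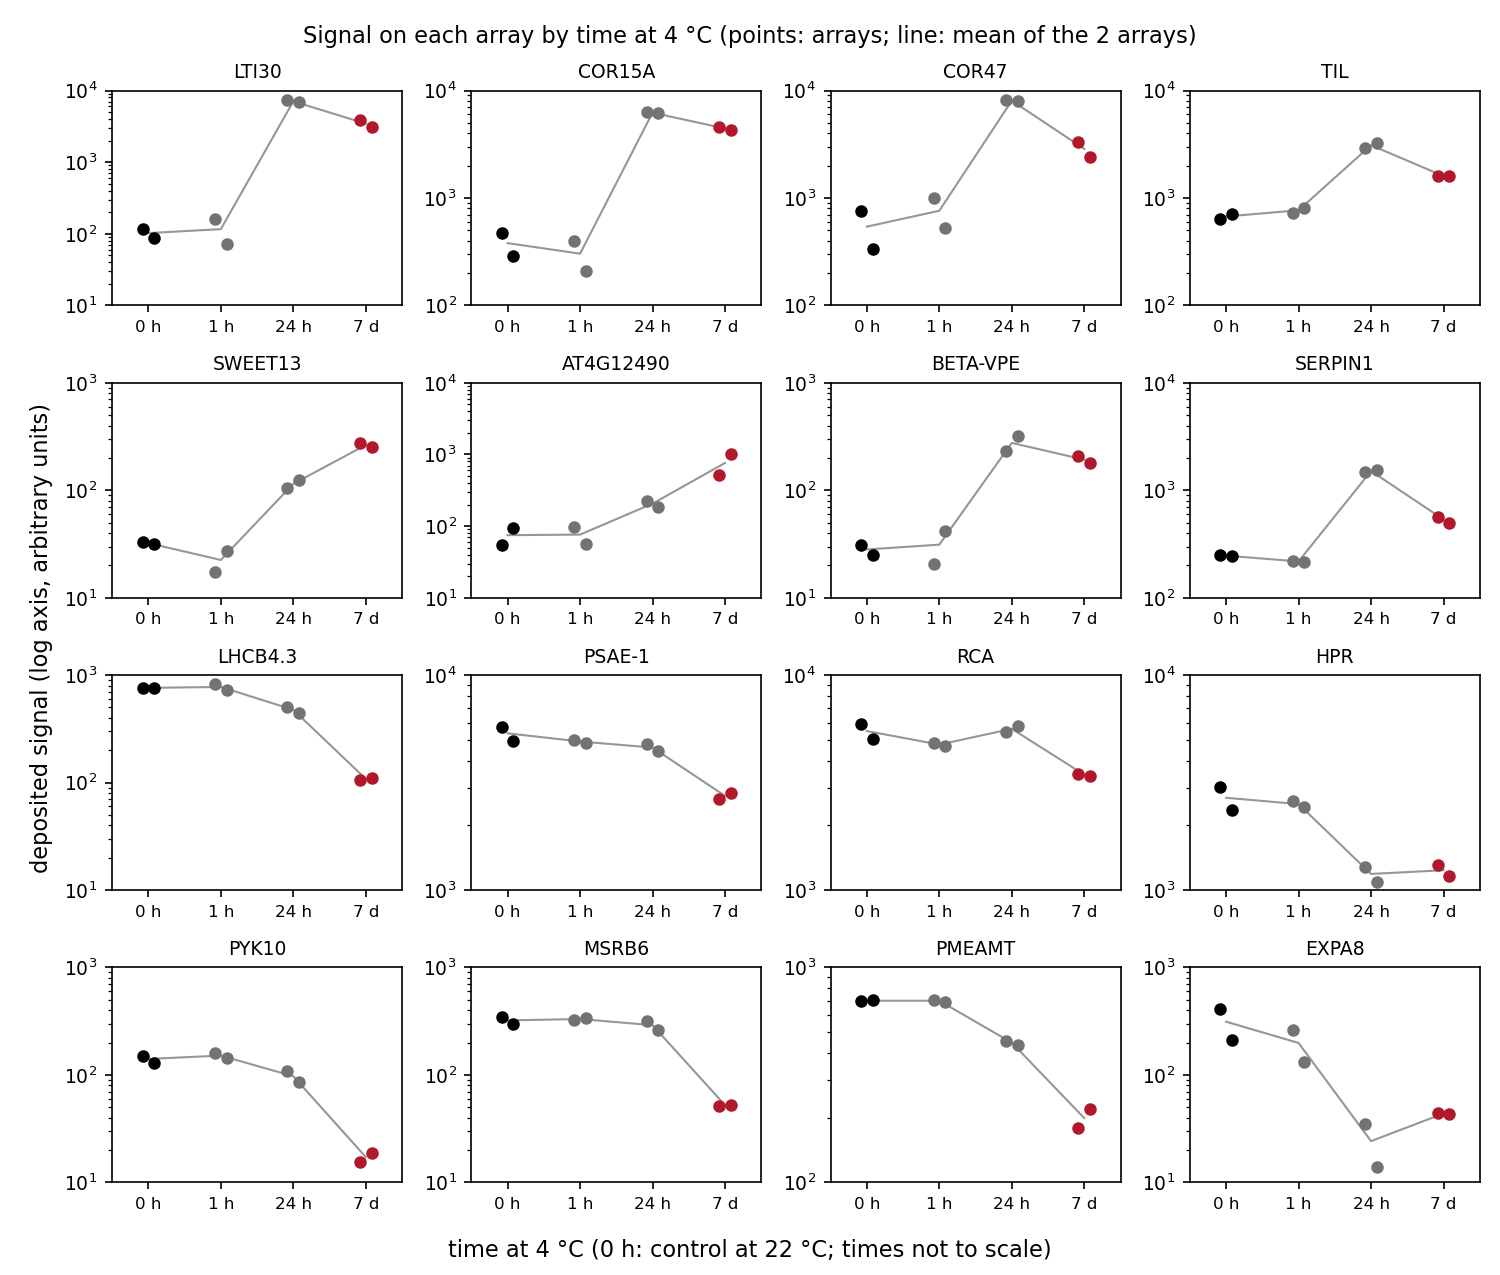
Deposited signal on each of the 2 arrays per time (points, log axis) for 16 genes, in the control (black), after 1 h and 24 h (grey) and after 7 d at 4 °C (red), with a line through the means. Cold-regulated genes such as LTI30 and COR47 were highest at 24 h, SWEET13 and AT4G12490 were highest at 7 d, and LHCB4.3, PYK10 and MSRB6 were lowest at 7 d.

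A set of genes fell mainly between 24 h and 7 d. LHCB4.3 stood at 505 and 447 after 24 h, against 107 and 110 after 7 d, a further log2 change of -2.07 (adjusted p = 0.000265). MSRB6 was at 316 and 265 after 24 h, one of them between the control arrays, and changed by -2.34 to 7 d (adjusted p = 0.000265). PYK10 was at 109 and 85.3 after 24 h and changed by -2.14 (adjusted p = 0.000797). Against the control, the 24 h change of LHCB4.3 was -0.67 (adjusted p = 0.00515), while those of PYK10 and MSRB6 were -0.51 and -0.15 and were not called (adjusted p = 0.0573 and 0.482). RCA gave 5464 and 5787 after 24 h, overlapping the control arrays, and changed by -0.71 to 7 d (adjusted p = 0.00604). PSAE-1 gave 4775 and 4434 after 24 h and changed by -0.75 (adjusted p = 0.00532). HPR, by contrast, was already at 1287 and 1092 after 24 h, and its change to 7 d was 0.06 (adjusted p = 0.830). PMEAMT and AT1G73600 continued down from 24 h to 7 d, by -1.15 and -1.51 (adjusted p = 0.00241 and 0.00532). All but RCA among the genes of this paragraph that differed between 24 h and 7 d did so without each array in turn. The difference of RCA missed the threshold without 24 h array 2 (adjusted p = 0.0566).

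Of the 9 COR genes and CBF targets, 3 were lower at 7 d than at 24 h, 1 was higher and the rest were not called, and those 3 were still above the control at 7 d. COR47 was at 8184 and 7912 after 24 h, and its change to 7 d was -1.51 (adjusted p = 0.0453). That difference ended without 24 h array 1, 24 h array 2, 7 d array 1 or 7 d array 2, with adjusted p up to 0.177. RD2 changed by -0.76 (adjusted p = 0.00717) and missed the threshold without 24 h array 2 (adjusted p = 0.0633). AT1G16850 changed by -1.20 (adjusted p = 0.0384), and its difference ended without any 1 of the 4 arrays compared (adjusted p up to 0.180). The member that was higher was AT5G62200, by 0.61 (adjusted p = 0.0445), and its difference ended without each array in turn. After quantile normalization 1 of the 9 was lower and none higher, and without 24 h array 2 none was called. TIL, from the list of LEA proteins and lipocalins, changed by -0.95 (adjusted p = 0.00346) and passed without each array. LTI30 and COR15A changed by -1.04 and -0.49 and were not called (adjusted p = 0.0726 and 0.310). A stronger retreat was seen in AT1G51090, from 1076 and 1154 after 24 h to 166 and 125 after 7 d (log2 -2.90, adjusted p = 0.00175). AT1G68500 went from 775 and 642 to 143 and 99.7 and AT1G48100 from 780 and 929 to 157 and 116 (adjusted p = 0.000756 and 0.000632). All 3 were still above control after 7 d, by 4.91-, 3.99- and 3.05-fold. SERPIN1 also receded, from 1484 and 1540 after 24 h (log2 -1.49, adjusted p = 0.000795).

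Other genes went on rising or turned. SWEET13 was at 104 and 126 after 24 h and rose further by 1.16 (adjusted p = 0.0127). AT4G12490 and AT4G12500 rose further by 1.78 and 1.23 (adjusted p = 0.0229 and 0.0241). The further rises of these 3 genes each ended without 24 h array 1, 24 h array 2 or 7 d array 2, with adjusted p up to 0.0792, 0.120 and 0.123. AT1G30250 was at 97.5 and 101 after 24 h, just below the lower control array, and at 461 and 415 after 7 d (log2 2.08, adjusted p = 0.00619). AT2G34620 fell to 54.2 and 36.9 after 24 h from 403 and 448 in the control, and stood at 149 and 143 after 7 d. It was thus higher at 7 d than at 24 h (log2 1.58, adjusted p = 0.00221) and lower than the control (log2 -1.50, adjusted p = 0.00134). AT1G20030 turned the other way, from 22.6 and 26.0 in the control to 160 and 123 after 24 h and 9.42 and 2.66 after 7 d. Of the 13 ribosome biogenesis genes, 7 were lower at 7 d than at 24 h and none higher, and none was lower without 24 h array 1, 24 h array 2 or 7 d array 2. Of the 69 plastid-encoded genes, 9 were higher and 3 lower at 7 d than at 24 h, 5 of the 9 being genes for RNA polymerase or ribosomal proteins. Centring arrays on their median gave 8 higher and 13 lower plastid genes, and leaving out 1 array of the 24 h or 7 d groups gave 2 to 7 higher and 0 to 2 lower.

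**Figure D4:**
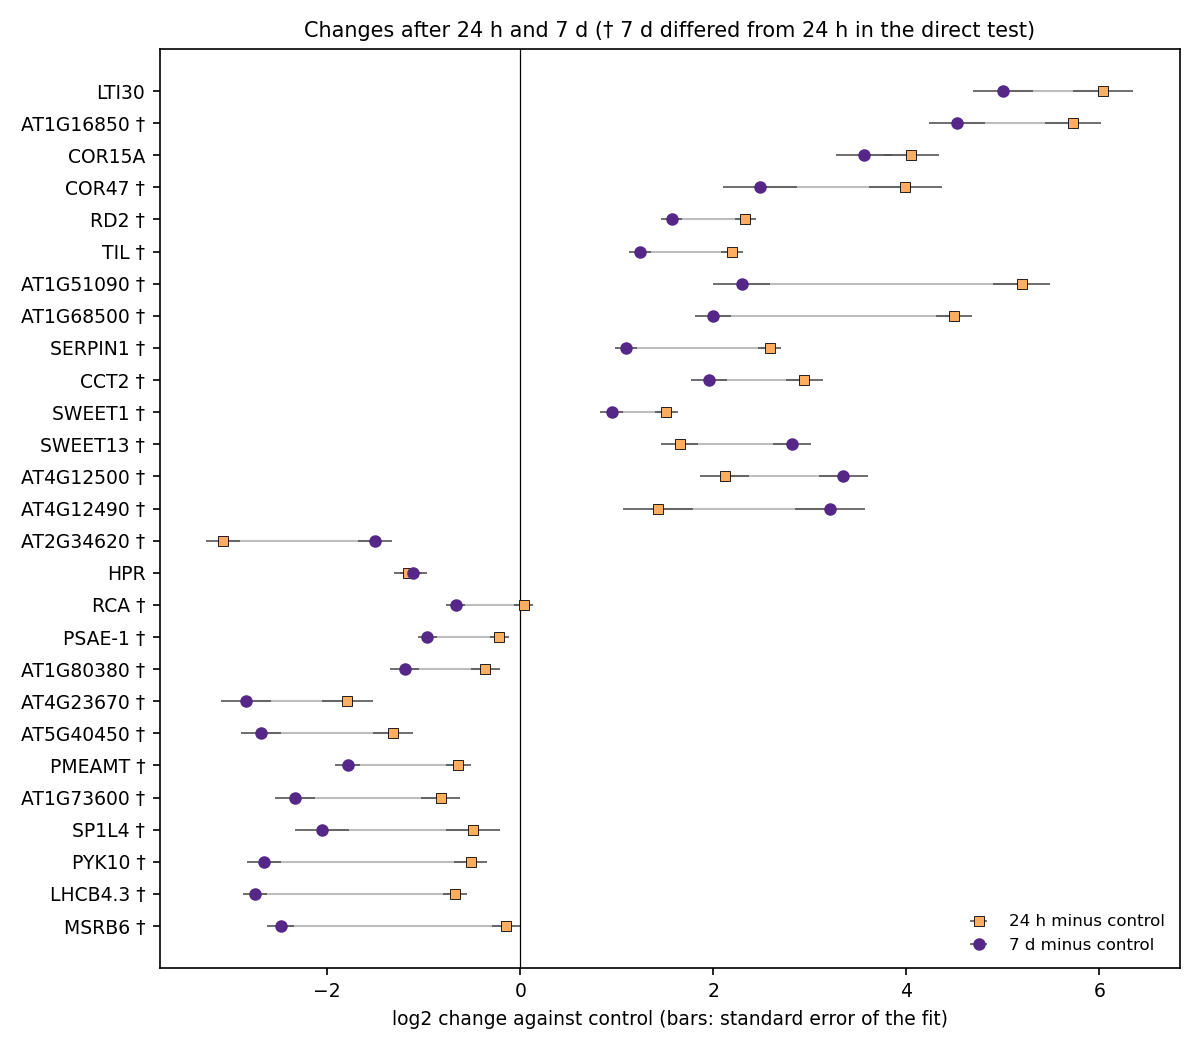
Log2 change against the control after 24 h (orange squares) and after 7 d at 4 °C (violet circles) for 27 genes, with the standard error of the fit as bars. Both changes share the control arrays, and a dagger marks genes whose 7 d and 24 h arrays differed in the direct test. MSRB6, PYK10 and LHCB4.3 lie at -0.15, -0.51 and -0.67 at 24 h and between -2.75 and -2.48 at 7 d.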

How the data were processed

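RNA of 8 arrays, 2 per time, was compared. The authors deposited a table of linear intensity values (signals) for 22810 probe sets. Per the submitters' processing notes the software was MAS5, and no further step is given in the sources used here. A trimmed mean leaving out 2% of values at each end was 100.0 on each array, so the arrays had been scaled alike. Median signals were 35.9 to 37.7 on the 4 arrays compared. Detection calls and scan dates were not used here.

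The 64 control probe sets were left out. A probe set was tested if its signal was at or above the array's own 40th percentile on at least 2 arrays. Values were taken as log2(signal + 6.07), the pseudocount being the 20th percentile of the table. limma 3.58.1 in R 4.3.3 fitted all 8 arrays with 4 group means and a variance trend (4 residual degrees of freedom), and p-values were adjusted by Benjamini and Hochberg over all 14756 probe sets, with a threshold of 0.05. The fit was also run on simulated data, with errors independent between arrays and fewer changed probe sets than were called here. Same-numbered arrays had correlated deviations in the real data, so the simulation does not give the rate of false calls. The number of arrays limits the precision, and the median standard error of a log2 change was 0.19.

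Gene names came from GEO's platform annotation, updated through RefSeq (assembly TAIR10.1). Of 22746 probe sets, 13513 name 1 gene, 503 name several and 8730 name none, and only the first kind was named. Of 602 genes on 28 lists, 117 had such a tested probe set. List membership followed general knowledge, and locus-tag genes were given no role. Plastid genes were taken by their chromosome in RefSeq, since their tags differ from those assumed. Lists of cytosolic ribosomal proteins and mitochondrial genes could not be formed, and promoters were not analysed here.

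Members and lists were chosen with earlier results of these data known, and 10 lists and 13 families by symbol were added after values were seen. Genes named were the 15 largest changes each way among called probe sets with non-overlapping arrays, up to 4 members of each list with at least 2 calls, all tested members of the COR, LEA and lipid transfer lists, and the 8 largest changes each way between 7 d and 24 h. The rule gave 90 genes, to which 31 called members of added lists and 21 further list members were added.

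Alternatives were other pseudocounts, filters and scalings, no variance trend, a fit of the 2 groups alone, a replicate block and leaving out each array.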

Additional observations from a re-analysis of the deposited data

Results flagged for a closer look

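For 44 of the genes named, the level after 7 d at 4 °C differed from that after 24 h in the direct limma test. Their changes against the shared control thus differed between these times. Genes were named in part for being among the 8 largest changes each way in this same test. The count of 44 is therefore partly set by that choice and gives no rate. The background in this test was 4.32% for rises and 4.22% for falls. In 12 genes above the control at 7 d the level had receded from 24 h. The 7 d minus 24 h differences on the log2 scale were -2.90 for AT1G51090, -2.60 for AT1G48100, -2.50 for AT1G68500, -2.12 for AT3G17130, -1.51 for COR47, -1.49 for SERPIN1, -1.20 for AT1G16850, -0.99 for CCT2, -0.95 for TIL, -0.76 for RD2, -0.56 for SWEET1 and -0.47 for CYS1. The difference was -2.69 for LEA4-5 and -0.82 for AT1G19450, which were not called against the control at 7 d.

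In 11 genes above the control at 7 d the level was higher than at 24 h. The differences were 2.28 for AT3G53980, 2.27 for AT3G14395, 2.08 for AT1G30250, 1.85 for AT3G60290, 1.78 for AT4G12490, 1.61 for AT1G68585, 1.58 for AT1G74440, 1.35 for AT3G28220, 1.23 for AT4G12500, 1.16 for SWEET13 and 0.61 for AT5G62200. AT1G68585 and AT1G74440 were below the control at 24 h, with log2 changes of -0.95 ± 0.15 SE and -0.96 ± 0.15 SE, and above it at 7 d.

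In 18 genes below the control at 7 d the level was also lower than at 24 h. The differences were -3.66 for AT1G20030, -2.34 for MSRB6, -2.14 for PYK10, -2.07 for LHCB4.3, -1.56 for SP1L4, -1.51 for AT1G73600, -1.37 for AT5G40450, -1.25 for AT1G62480, -1.15 for PMEAMT and -1.05 for AT4G23670. Smaller differences were -0.996 for SWEET2, -0.84 for AT1G80380, -0.79 for psaJ, -0.75 for PSAE-1, -0.72 for CRR41, -0.71 for RCA, -0.58 for psbF and -0.37 for PSAN. In AT2G34620, below the control at both times, the level at 7 d was higher than at 24 h by 1.58.

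Of the 42 of these genes chosen by rule or from added lists, 18 differed without each array in turn. The other 24 missed the threshold without at least 1 array, and adjusted p reached 0.210 for CRR41 and 0.193 for AT5G62200 without 24 h array 1.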

How the results depend on the processing

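Across 17 alternatives none of the 118 called genes by rule or from added lists reversed, although atpB had no change after quantile normalization (log2 -0.00, adjusted p = 1.00), and 59 of them passed the test without each array in turn. Only quantile normalization and median centring could have turned a sign, since the arrays of the 2 groups did not overlap in any called probe set. Under the other alternatives the lack of reversals was fixed in advance. Numbers of calls depended on the arrays. Leaving out 1 array gave 365 to 915 higher and 416 to 1076 lower probe sets at 7 d than in the control, the lowest counts without control array 1. Against 24 h the same gave 101 to 485 higher and 135 to 594 lower. A fit of the 2 groups alone gave 594 higher and 771 lower against the control, and 327 higher against 24 h. The other alternatives without a left-out array or a block gave 770 to 1220 higher and 915 to 1288 lower against the control. Centring arrays on their median gave 396 higher and 1005 lower at 7 d than at 24 h, quantile normalization 404 higher, no filter 342 higher, and no variance trend 409 higher and 402 lower. The causes were not tested.

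Titles number the arrays 1 and 2 in each group, but nothing says that a number marks a shared batch. Deviations of same-numbered arrays from their group means correlated at 0.16 to 0.36 between groups. With the number as a replicate block, calls against the control numbered 1584 higher and 1702 lower, and calls against 24 h 1388 higher and 1093 lower. No called gene named here lost its call under the block, and AT4G33980 gained one (adjusted p = 0.0101), so that all 9 COR genes and CBF targets were higher. With 2 arrays per group, changes of the size of the median standard error cannot be told from array noise, and the signals carry no read depth.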

Other observations

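Several families taken by gene symbol after values were seen lay near the background of 15.9% called, and most of their calls rested on single arrays. Of 25 UDP-glycosyltransferases, 1 rose and 3 fell after 7 d, and none was lower without 7 d array 1, 7 d array 2 or control array 1 and 1 without control array 2. Of 14 trichome-birefringence-like proteins, which acetylate wall polysaccharides, none rose and 2 fell, none of them without control array 1 and 1 without control array 2. Of 11 ubiquitin-conjugating enzymes, 2 rose and 1 fell, and none was higher without any 1 of the 4 arrays compared. None of 9 ATG8 genes, whose products build autophagosomes, was called. Of 8 tubulin and actin genes, none rose and 2 fell, TUB6 and ACT11. TUB6 had a log2 change of -0.65 (adjusted p = 0.0493), and its call ended in 6 of the 8 fits that left out 1 array (adjusted p up to 0.254, without control array 1). The medians of these families were between -0.27 and 0.17, and each moved by over 1.5 times or changed sign when 1 array was left out.

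Of 6 tetraspanins, membrane proteins that organise signalling domains, 2 rose and 1 fell, and 1 rose without 7 d array 2 or control array 2. Of 14 serine carboxypeptidase-like proteins, 2 rose and 1 fell after 7 d, and 5 were higher and none lower at 7 d than at 24 h, where 4.32% of all tested probe sets were higher. Without 1 of the 4 arrays of 24 h and 7 d, 1 to 3 of them were higher, and after quantile normalization 2. Of 11 cytochromes P450 of the CYP71B group, none rose and 2 fell after 7 d, and 3 were higher and none lower at 7 d than at 24 h. Without 1 of those 4 arrays 0 or 1 of them was higher. When any 1 array was left out, at most 1 P450 of this group was lower after 7 d than in the control, and at most 1 carboxypeptidase was higher.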
